A study of Mus musculus with 12 samples.

Results

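Expression of 10 genes of intercalated cell fate and Notch signalling was examined in mouse kidney: the transcription factors Foxi1, Tfcp2l1, Hmx2 and Dmrt2, the Notch ligands Jag1 and Dll1, the receptors Notch1 and Notch2, and the Notch target genes Hes1 and Hey1. Members were the rows of the deposited count table that carry these gene names, 10 of 46403 genes. All 10 passed the filter on low counts, with 114 to 37472 reads in a library. Polyadenylated RNA of the whole right kidney was sequenced in 12 libraries of 3 genotypes, to ask how Grhl2, an epithelial transcription factor, bears on the growth of renal cysts.

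The wildtype group (n = 5) is defined by the labels as R26StopFLMYC; Grhl2 flox/flox, so these control mice carry both floxed Grhl2 alleles and a MYC transgene at Rosa26 behind a floxed stop. The Grhl2KO_Myc group (n = 4) is labelled as Grhl2 knockout with Myc overexpression. It came from HoxB7-Cre; Grhl2flox/+ parents crossed to R26StopFLMYC; Grhl2flox/flox parents. HoxB7-Cre acts in the ureteric bud and in the collecting duct that grows from it, so the deletion is directed to that lineage and not to the rest of the kidney. The Myc group (n = 3) is labelled as Myc overexpression, and its sample titles carry the letters HET, where the other titles carry WT or KO. What HET refers to is not stated, and none of the sources used here gives the cross, Cre or Grhl2 alleles of this group. The labels name no treatment, age or sex. The labels do not say that each library is a separate mouse, so p-values measure the spread between these libraries, which may be technical.

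Intercalated cells of the collecting duct secrete acid (type A) or base (type B) and lie scattered among principal cells, which carry water and sodium. Notch receptors are activated by ligands on neighbouring cells, are cut by Adam10 and gamma-secretase, and release an intracellular domain that joins RBPJ on DNA and switches on Hes and Hey genes. In the collecting duct, cells with active Notch become principal cells, whereas cells that escape it switch on Foxi1 and become intercalated cells. Endothelium, smooth muscle and other kidney cells also use Notch, so a whole-kidney level sums over all of them.

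Promoters were available for 8 of the 10 members in the RefSeq table of build GRCm38.p6, with 10 start sites, and those of Hes1 and Hey1 were missing. The 250 bases before the start site are shown 5′ to 3′ for 3 intercalated cell factors described in turn below: Foxi1 at chr11:34208090-34208339 (minus strand), Tfcp2l1 at chr1:118627695-118627944 (plus strand) and Dmrt2 at chr19:25672161-25672410 (plus strand). Capitals mark the RBPJ core TGGGAA.
Foxi1: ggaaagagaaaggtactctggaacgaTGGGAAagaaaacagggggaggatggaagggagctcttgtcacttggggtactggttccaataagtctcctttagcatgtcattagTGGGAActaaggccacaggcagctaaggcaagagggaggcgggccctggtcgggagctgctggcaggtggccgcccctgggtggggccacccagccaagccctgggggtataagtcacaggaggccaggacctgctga
Tfcp2l1: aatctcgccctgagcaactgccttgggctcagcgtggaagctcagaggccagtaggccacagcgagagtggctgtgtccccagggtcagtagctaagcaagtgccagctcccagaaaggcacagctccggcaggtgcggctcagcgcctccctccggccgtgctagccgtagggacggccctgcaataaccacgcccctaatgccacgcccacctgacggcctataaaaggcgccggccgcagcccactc
Dmrt2: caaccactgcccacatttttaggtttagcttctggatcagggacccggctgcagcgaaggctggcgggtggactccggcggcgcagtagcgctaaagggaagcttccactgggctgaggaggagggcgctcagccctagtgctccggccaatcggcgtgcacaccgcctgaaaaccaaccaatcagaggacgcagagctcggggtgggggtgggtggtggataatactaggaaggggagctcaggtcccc
The core was searched on both strands, along with the grainyhead motifs AACCGGTT and AACCNGGTT, which can overlap each other, and the forkhead motif TGTTTAC. Foxi1 held 2 RBPJ cores on the plus strand of the gene, whose first bases lie at -224 and -138 from the start site. None of the other 9 member promoters held this core. Of 32851 promoters in the table, 21.6% held at least 1 core and 2.77% held 2 or more. The grainyhead motifs were in 0.116% and 0.24% of all promoters and the forkhead motif in 3.17%, and none was in a member promoter. A match is a run of letters and was not tested as a binding site.

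Total counts lay between 52973500 and 108165000 per library over 23742 genes tested and those below the filter. No gene of the marker lists for proximal tubule, podocytes, endothelium and principal cells lay under 1 CPM on average. Grhl2, the targeted gene, stood at 29.2, 24.9, 25.6, 23.9 and 25.2 CPM in wildtype, 28.5, 33.0 and 28.2 CPM in Myc and 18.5, 19.0, 24.3 and 22.3 CPM in Grhl2KO_Myc. Its level differed by -0.29 on the log2 scale between Grhl2KO_Myc and wildtype (adjusted p = 0.082) and fell by 0.51 between Grhl2KO_Myc and Myc (adjusted p = 0.044), a call lost without any one of Myc 1, 2, 3 or Grhl2KO_Myc 1, 2, 4 (adjusted p up to 0.21). The mouse Myc gene passed in no comparison, and no source used here tells whether transgene reads fall on it. Wildtype 4, Grhl2KO_Myc 3 and Grhl2KO_Myc 4 stood apart by low proximal tubule transcripts: their mean log2 CPM over 20 such genes was -1.35, -1.12 and -1.03 against the mean of all libraries, and that of the other 9 lay between -0.07 and 0.79. The Y-linked gene Ddx3y marked 4 libraries (wildtype 5, Myc 3, Grhl2KO_Myc 1 and 4) with 62.8 to 81.2 CPM, and reached at most 1.33 CPM in the rest. In Grhl2KO_Myc 3 both Ddx3y (0 CPM) and Xist (0.21 CPM) were low. The sex term used below was set by Ddx3y alone and put this library with those without Y-linked transcripts, so its assignment is doubtful.

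All 10 are annotated as protein-coding in GENCODE M21 (mm10). The intercalated cell factors are Foxi1 on chromosome 11 from 34204338 to 34208089, Tfcp2l1 on chromosome 1 from 118627945 to 118685168, Hmx2 on chromosome 7 from 131548773 to 131558014 and Dmrt2 on chromosome 19 from 25672411 to 25678991. The ligands are Jag1 on chromosome 2 from 137081456 to 137116644 and Dll1 on chromosome 17 from 15367354 to 15376872. The receptors are Notch1 on chromosome 2 from 26457903 to 26516663 and Notch2 on chromosome 3 from 98013527 to 98150361. The targets are Hes1 on chromosome 16 from 30064384 to 30067796 and Hey1 on chromosome 3 from 8663359 to 8667256. Counts fall on whole genes and do not tell isoforms apart.

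Across the 10 members, the wildtype level per kilobase of exon (CPM, counts scaled to a common library total with TMM, divided by the deposited exon length) was highest for Tfcp2l1 at 35.6 ± 2.54 CPM per kb (SD, n = 5). Hes1 at 25.0 ± 3.36 and Jag1 at 23.7 ± 1.73 CPM per kb followed and did not differ beyond their spread. Notch2 at 11.4 ± 0.78, Hey1 at 11.3 ± 1.51, Foxi1 at 9.70 ± 0.84, Dll1 at 9.33 ± 1.01 and Notch1 at 9.19 ± 0.88 CPM per kb formed a middle group in which neighbours were within their spread. The lowest were Dmrt2 at 2.86 ± 0.47 and Hmx2 at 1.78 ± 0.52 CPM per kb. The deposited length of Hmx2 is 1791 bases and its exons in GENCODE M21 span 3216, with which its mean would be 0.99 CPM per kb. The other lengths were equal, or 2347 against 2337 bases for Dmrt2. Below, levels are CPM, listed in the order of the replicate numbers, and differences are log2 fold changes from the edgeR quasi-likelihood test over all genes, called at a Benjamini-Hochberg adjusted p under 0.05. The 3 comparisons share libraries.

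**Figure D1:**
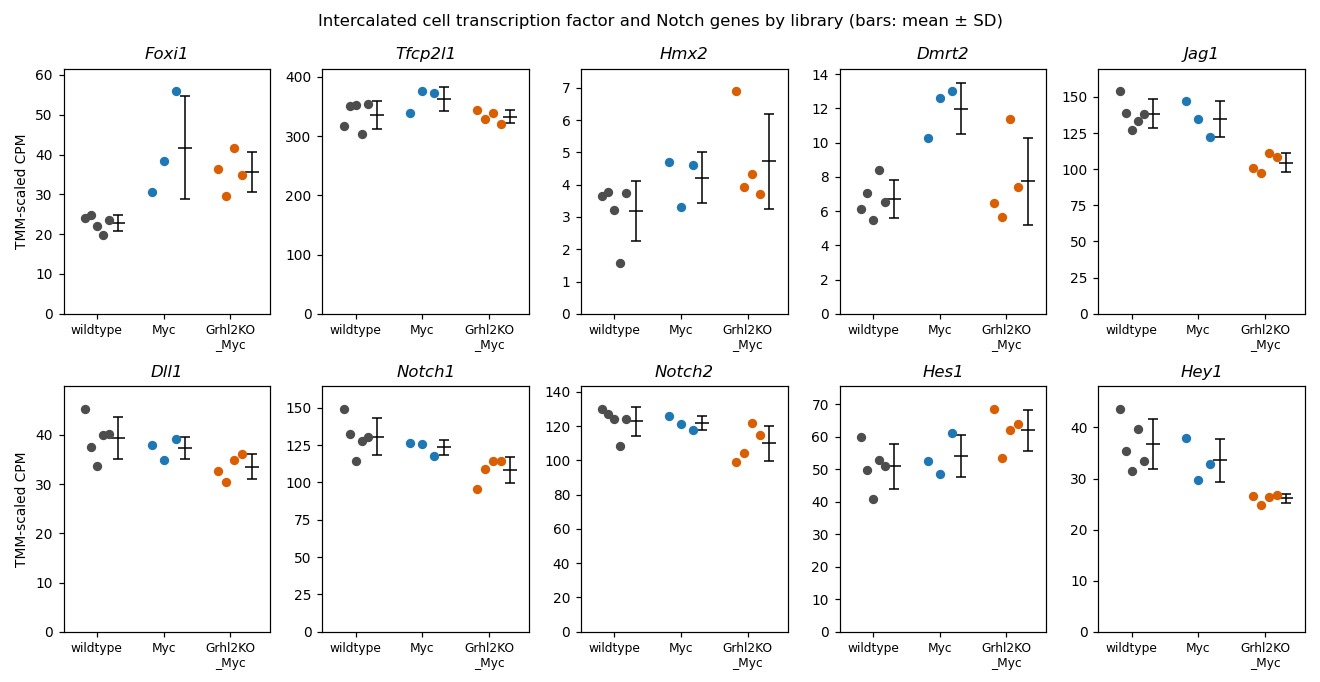
TMM-scaled CPM (y axis, from 0) of the 10 genes in each library, by genotype (x axis), with mean ± SD beside the points. All Grhl2KO_Myc points lie above wildtype for Foxi1 and below wildtype for Jag1, Notch1 and Hey1.

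Between Grhl2KO_Myc and wildtype, 4 of the 10 members were called, against 6.67% of all genes tested. Foxi1 was higher (4.06% of all genes were called higher), and Jag1, Hey1 and Notch1 were lower (2.61% of all genes). Libraries of both groups did not overlap for these 4, against 9.47% of all genes (5.67% higher and 3.81% lower). The count was 2 (Jag1 and Hey1) without wildtype 1, Grhl2KO_Myc 1, 3 or 4 and with a sex term. At an unadjusted p under 0.05 stood 8 of the 10, against 22% of all genes. Because whole kidneys were sequenced, fewer cells of a type and less RNA per cell cannot be told apart. In Myc against wildtype 0 members were called by edgeR, with 2 at an unadjusted p under 0.05 (4.62% of all genes), 0 called by limma-voom and 2 by DESeq2 (Foxi1 and Dmrt2). There 0.00421% of all genes, a single gene, were called. In Grhl2KO_Myc against Myc 0 members were called by edgeR, with 4 at an unadjusted p under 0.05 (13.3% of all genes) and 1 called by DESeq2 and by limma-voom (Jag1), and 0.842% of all genes were called.

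Among the intercalated cell factors, Foxi1, the forkhead factor that intercalated cells need to form, stood at 24.1, 24.8, 22.0, 19.9 and 23.5 CPM in wildtype, 30.7, 38.5 and 56.0 CPM in Myc and 36.3, 29.6, 41.6 and 34.8 CPM in Grhl2KO_Myc. Every Myc and every Grhl2KO_Myc library was above every wildtype library, and Myc 3 was the highest of all. Foxi1 rose 1.56-fold in Grhl2KO_Myc against wildtype (0.64, SE 0.15, 95% interval 0.31 to 0.96, adjusted p = 0.026, higher in 4 of 4 libraries). In Myc against wildtype the mean CPM was 1.82-fold higher (0.87, SE 0.16, adjusted p = 0.31), and DESeq2 gave it an adjusted p of 0.00052. Between Grhl2KO_Myc and Myc it was -0.23 (95% interval -0.60 to 0.14), with overlapping libraries. The alternatives that ended the call against wildtype included leaving out wildtype 1 (adjusted p = 0.051), wildtype 3 (0.064), Grhl2KO_Myc 1 (0.061), Grhl2KO_Myc 3 (0.082) or Grhl2KO_Myc 4 (0.063), a sex term (0.051) and leaving out the 3 libraries low in proximal tubule transcripts (0.48, adjusted p = 0.14).

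Tfcp2l1, which directs both principal and intercalated cell maturation and controls Jag1 in the developing duct, was at 316, 351, 353, 304 and 354 CPM in wildtype, 339, 376 and 373 CPM in Myc and 344, 328, 339 and 319.8 CPM in Grhl2KO_Myc. All 3 groups overlapped, and the difference between Grhl2KO_Myc and wildtype was -0.01 with a 95% interval of -0.15 to 0.12. Dmrt2, a factor found in type A intercalated cells, stood at 6.13, 7.08, 5.45, 8.39 and 6.51 CPM in wildtype, 10.3, 12.6 and 13.0 CPM in Myc and 6.47, 5.68, 11.4 and 7.38 CPM in Grhl2KO_Myc. All 3 Myc libraries were above all 5 wildtype libraries, and of the Grhl2KO_Myc libraries only Grhl2KO_Myc 3 reached the Myc range. The Dmrt2 difference was 0.83 in Myc against wildtype (SE 0.20, adjusted p = 0.61; 0.035 by DESeq2) and -0.63 in Grhl2KO_Myc against Myc (SE 0.21, adjusted p = 0.22). Without Grhl2KO_Myc 3 the latter became -0.88 with an adjusted p of 0.044, and without the 3 libraries low in proximal tubule transcripts -0.98 with an adjusted p of 0.011. Against wildtype, Dmrt2 in Grhl2KO_Myc differed by 0.20 (adjusted p = 0.57), and by -0.04 without Grhl2KO_Myc 3. For libraries that do not overlap, Foxi1 and Dmrt2 were the 2 members higher in Myc than in wildtype, where 2.22% of all genes were. None was lower, where 1.34% of all genes were (3.57% in either direction).

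Hmx2, a homeobox gene of intercalated cells, was the least abundant member, at 3.65, 3.77, 3.22, 1.58 and 3.73 CPM in wildtype, 4.72, 3.30 and 4.62 CPM in Myc and 6.91, 3.93, 4.34 and 3.70 CPM in Grhl2KO_Myc. Wildtype 4 was the lowest and Grhl2KO_Myc 1 the highest library, and groups overlapped. Its difference in Grhl2KO_Myc against wildtype was 0.56 (SE 0.25, adjusted p = 0.22), and it passed only with a term for the proximal tubule score (0.87, adjusted p = 0.020). The related Hmx3 lay under 1 CPM.

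Among intercalated cell effector genes, 2 of 20 were called lower in Grhl2KO_Myc against wildtype, where 2.61% of all genes were. These 20 were proton pump subunits, carbonic anhydrases, ammonia channels, anion exchangers, the water channel Aqp6 and the genes Kit, Insrr, Oxgr1 and Adgrf5. Of the 20, 17 were below 0 in Grhl2KO_Myc against wildtype, with a median of -0.28 against -0.01 over all genes. By edgeR 0 were called higher and 2 lower, with 8 at an unadjusted p under 0.05 (22% of all genes), and limma-voom also called 2. DESeq2 called 5, the ammonia channel Rhcg higher (0.27, adjusted p = 0.045) and 4 lower. The 3 libraries low in proximal tubule transcripts were also low here. For the 10 effectors shared by both cell types, the mean log2 CPM against the mean of all libraries was -0.51 in wildtype 4, with the remaining wildtype libraries at -0.08 to 0.27. It was 0.00, -0.03, -0.41 and -0.45 in Grhl2KO_Myc 1 to 4. The 4 type B genes summed to 107 and 106 CPM in Grhl2KO_Myc 1 and 2, 90.7 and 85.2 CPM in Grhl2KO_Myc 3 and 4, 65.1 CPM in wildtype 4 and 116 to 140.3 CPM in the other wildtype libraries. The 6 type A genes summed to 196 to 223 CPM in Grhl2KO_Myc, below the 231 to 246 CPM of wildtype, wildtype 4 included. Adgrf5 was the largest part of this sum, with a mean of 112 CPM in wildtype and 97.6 CPM in Grhl2KO_Myc (edgeR adjusted p = 0.096). Which kidney cells its reads came from was not tested, so the sum is not a measure of type A cells alone. Kit (48.3 and 46.9 CPM) and Car15 (46.0 and 44.2 CPM) differed by less than their spread. Without the 3 libraries low in proximal tubule transcripts 16 of the 20 effectors were below 0 with a median of -0.22. There 4 were called lower (Aqp6, Slc26a7 and the type B genes Insrr and Slc4a9). Calls over all genes, in either direction, also rose there, to 2272 from 1584 with all libraries. Aqp6, a water channel of acid-secreting cells, stood at 8.36, 6.68, 6.85, 3.30 and 7.56 CPM in wildtype, 8.55, 7.97 and 8.67 CPM in Myc and 2.66, 1.77, 1.94 and 2.06 CPM in Grhl2KO_Myc. Every Grhl2KO_Myc library was below every other library, and Aqp6 fell by 1.63 (SE 0.23, adjusted p = 0.0014). Slc26a7, an anion exchanger of type A cells, stood at 13.6, 12.3, 13.4, 19.0 and 13.5 CPM in wildtype, 14.1, 13.8 and 13.2 CPM in Myc and 7.28, 8.58, 9.20 and 8.13 CPM in Grhl2KO_Myc, again with Grhl2KO_Myc libraries below all others, and fell by 0.79 (SE 0.12, adjusted p = 0.0025). Both effectors kept their call in 20 of 20 alternatives. In the same 4 libraries Foxi1 was higher and these effectors were lower. In Myc, where Foxi1 was also above every wildtype library, neither effector was called against wildtype. Only 1 of 23742 genes was called in that comparison, so the missing call says little. A link between Foxi1 and these effectors was not tested. With all libraries, Rhcg (0.27, adjusted p = 0.088), Insrr (-0.63, adjusted p = 0.25) and Slc4a9 (-0.38, adjusted p = 0.30) did not pass by edgeR.

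In Myc against wildtype 16 of the 20 effector genes were above 0, with a median of 0.19. By edgeR 0 were called, with 4 at an unadjusted p under 0.05 (4.62% of all genes), 3 called by DESeq2 and 0 by limma-voom. The 3 were the proton pump subunits Atp6v0d2, Atp6v1c2 and Atp6v1g3, named after their values were seen, with DESeq2 differences of 0.40, 0.52 and 0.67 (adjusted p = 0.040, 0.0080 and 0.013). In Grhl2KO_Myc against Myc 18 were below 0 with a median of -0.48, and 4 were called lower, against 0.484% of all genes: Aqp6 (-1.99, adjusted p = 0.0018), Slc26a7 (-0.72, adjusted p = 0.027) and again Atp6v0d2 (-0.47, adjusted p = 0.048) and Atp6v1c2 (-0.55, adjusted p = 0.047). DESeq2 called 8 there, and 5 were called lower without the 3 libraries low in proximal tubule transcripts. Without these libraries 318 of all genes were called in either direction, against 200 with all libraries. Leaving out single libraries ended the call of Slc26a7 in 6 of 7 cases (Myc 1, 2 or 3, Grhl2KO_Myc 1, 2 or 4; adjusted p up to 0.13), of Atp6v1c2 in the same 6 (up to 0.19) and of Atp6v0d2 in all 7 (up to 0.21), while Aqp6 kept it in 18 of 18 alternatives. Of 14 principal cell genes, 8 were below 0 and 6 above 0 in Grhl2KO_Myc against wildtype, with a median of -0.20. By edgeR 0 were called higher and 3 lower (2.61% of all genes were called lower), and DESeq2 called 7 and limma-voom 4. At an unadjusted p under 0.05 stood 10, against 22% of all genes. The 3 called by edgeR were Elf5 (-1.90, adjusted p = 3.5e-06), Aqp4 (-1.29, adjusted p = 0.0016) and Avpr2 (-0.93, adjusted p = 0.00029). Elf5 is a principal cell transcription factor, Aqp4 a water channel and Avpr2 the vasopressin receptor. Aqp2, the vasopressin-regulated water channel, did not pass (-0.17, adjusted p = 0.70). Above 0 and not called stood Hsd11b2, which inactivates glucocorticoids (0.75, adjusted p = 0.066, all 4 libraries above all wildtype libraries), the water channel Aqp3 (0.34, adjusted p = 0.096), Gata3 (0.34, adjusted p = 0.12) and Scnn1g (0.15, adjusted p = 0.20), named after their values were seen. Without the 3 libraries low in proximal tubule transcripts 1 of the 14 was called higher, Hsd11b2, and 5 lower. Of all genes 2272 were called there in either direction, against 1584 with all libraries.

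Of the ligands, Jag1, which activates Notch on neighbouring cells, was at 154, 139, 127, 133 and 138 CPM in wildtype, 147, 135 and 123 CPM in Myc and 101, 97.6, 111 and 109 CPM in Grhl2KO_Myc. The 4 Grhl2KO_Myc libraries lay below all 8 others. Jag1 fell by 0.40 in Grhl2KO_Myc against wildtype (SE 0.069, 95% interval -0.55 to -0.25, adjusted p = 0.0052, lower in 4 of 4 libraries), and the call held in 20 of 20 alternatives with adjusted p at most 0.027. Against Myc the difference was -0.37 (SE 0.077, adjusted p = 0.051), just outside the threshold. Myc and wildtype differed by -0.04 (95% interval -0.20 to 0.12). Of the 4 called members, it alone kept its call in every alternative tried.

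Dll1, a Notch ligand of the Delta family that also shares 867 exon bases with the antisense transcript A930024N18Rik, stood at 45.3, 37.5, 33.7, 40.1 and 40.2 CPM in wildtype, 37.9, 34.8 and 39.2 CPM in Myc and 32.7, 30.4, 34.8 and 36.2 CPM in Grhl2KO_Myc. Grhl2KO_Myc libraries reached into the lower part of the wildtype range. The difference was -0.23 (SE 0.081, adjusted p = 0.12), and -0.29 with adjusted p = 0.039 with a term for the proximal tubule score. The library kit does not mark strand, so reads of Dll1 and of its antisense partner cannot be told apart, and the partner itself differed by -0.29 (adjusted p = 0.10). The other 6 listed ligands did not pass: Jag2 differed by -0.06 (adjusted p = 0.59) and the endothelial ligand Dll4 by -0.10 (adjusted p = 0.50), and Dll3 and Dlk2 lay under 1 CPM.

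Notch1, 1 of the 2 receptors among the members, was at 149, 132, 115, 128 and 130.2 CPM in wildtype, 127, 126 and 118 CPM in Myc and 95.3, 109, 114 and 114 CPM in Grhl2KO_Myc. Grhl2KO_Myc libraries lay below all wildtype and Myc libraries, by less than 1 CPM at the closest point, between wildtype 3 and Grhl2KO_Myc 3 and 4. Notch1 fell by 0.27 (SE 0.075, 95% interval -0.44 to -0.11, adjusted p = 0.0497), at the edge of the threshold, and the call held in 7 of 20 alternatives. Among those that ended it were RLE scaling (adjusted p = 0.051), upper-quartile scaling (0.060), no filter (0.080), a fit of only these groups (0.090), a sex term (0.097) and leaving out wildtype 1, 2 or 5 or any one of the Grhl2KO_Myc libraries (up to 0.12). Exons of Notch1 share 1068 bases with the antisense gene 0610009E02Rik (-0.05, adjusted p = 0.80) and 414 with Gm13568 (-0.11, adjusted p = 0.66).

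Notch2, the receptor that directs proximal nephron fate in development, stood at 130.1, 127, 124, 108 and 124 CPM in wildtype, 126, 121 and 118 CPM in Myc and 99.2, 104, 122 and 115 CPM in Grhl2KO_Myc. Wildtype 4 lay below the other wildtype libraries and Grhl2KO_Myc 3 was within the wildtype range, so groups overlapped. The difference was -0.16 (SE 0.068, adjusted p = 0.20). It passed without wildtype 4 (-0.20, adjusted p = 0.042) and without the 3 libraries low in proximal tubule transcripts (-0.32, adjusted p = 0.0065). Notch4, an endothelial receptor outside the members, was called lower (-0.20, adjusted p = 0.049; held in 6 of 20 alternatives, lost without wildtype 1, 2 or 3 or any one Grhl2KO_Myc library, up to 0.11), and Notch3 was not (-0.11, adjusted p = 0.69).

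The target genes Hes1 and Hey1, both transcriptional repressors, had differences of opposite sign, and that of Hey1 passed. Hes1 stood at 59.9, 49.7, 40.9, 52.9 and 50.9 CPM in wildtype, 52.5, 48.6 and 61.2 CPM in Myc and 68.5, 53.5, 61.9 and 63.9 CPM in Grhl2KO_Myc. Groups overlapped, since wildtype 1 was above Grhl2KO_Myc 2, and the difference was 0.29 (SE 0.11, 95% interval 0.06 to 0.52, adjusted p = 0.13). Hey1 stood at 43.7, 35.4, 31.6, 39.8 and 33.4 CPM in wildtype, 38.0, 29.8 and 32.9 CPM in Myc and 26.7, 24.9, 26.3 and 26.8 CPM in Grhl2KO_Myc. The 4 Grhl2KO_Myc libraries held a range of 24.9 to 26.8 CPM, below every other library, and Hey1 fell by 0.49 (SE 0.097, 95% interval -0.70 to -0.28, adjusted p = 0.011). Its call held in 19 of 20 alternatives and had an adjusted p of 0.052 without the 3 libraries low in proximal tubule transcripts (-0.49). Against Myc, Hey1 differed by -0.36 (SE 0.11, adjusted p = 0.17) and Hes1 by 0.20 (adjusted p = 0.52). Jag1, Notch1 and Hey1 were the 3 members whose Grhl2KO_Myc libraries lay below all Myc libraries, against 7.89% of all genes. None lay above all Myc libraries, against 8.95% of all genes (16.8% in either direction).

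**Figure D2:**
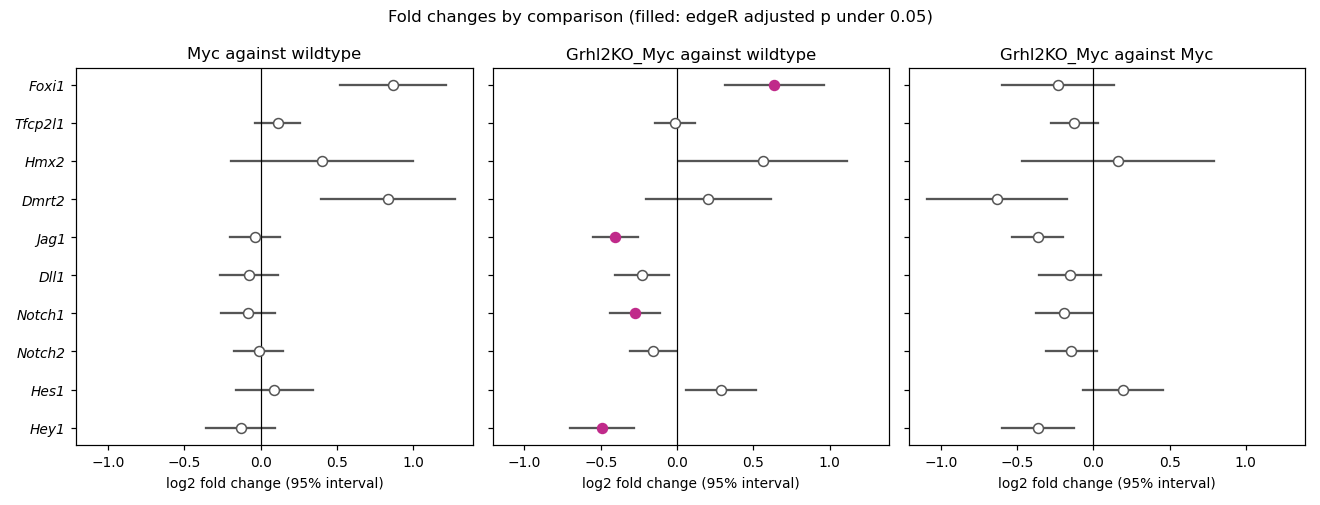
Log2 fold change (x axis) of each member (y axis) in the 3 comparisons, with 95% intervals, filled where the edgeR adjusted p was under 0.05. In Grhl2KO_Myc against wildtype Foxi1 is filled at 0.64, Jag1 at -0.40, Notch1 at -0.27 and Hey1 at -0.49, and no point is filled in the other comparisons.

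**Figure D3:**
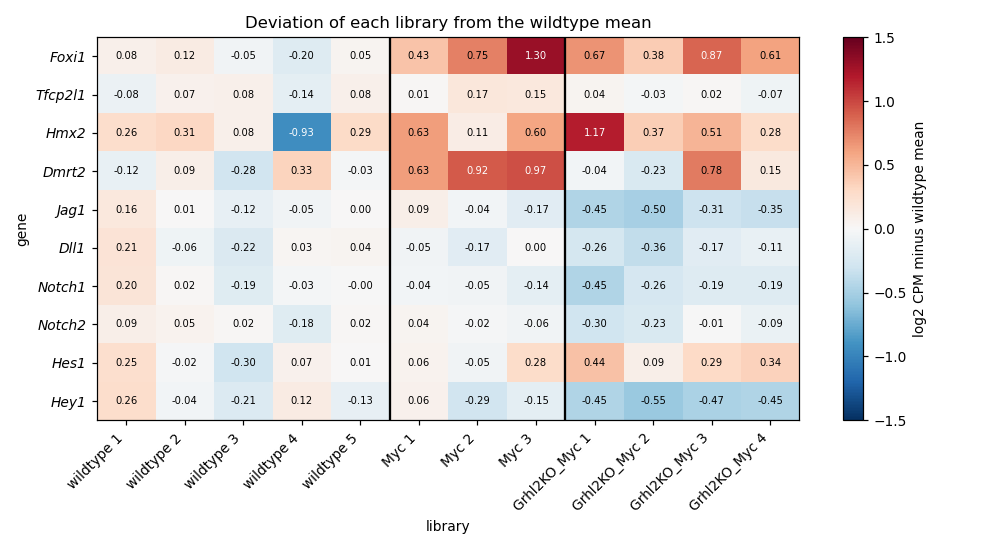
Log2 CPM of each member (rows) in each library (columns) minus the wildtype mean, with the value in each cell. Foxi1 lies between 0.38 and 1.30 in the 7 Myc and Grhl2KO_Myc libraries, and Hey1 between -0.55 and -0.45 in the Grhl2KO_Myc libraries.

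Ratios of raw counts within a library need no scaling between libraries. They were chosen after these values were seen: 5 ratios in 3 comparisons, 15 exact two-sided permutation tests. The ratio of Hes1 to Hey1 reads was 1.37, 1.40, 1.29, 1.33 and 1.52 in wildtype, 1.38, 1.63 and 1.86 in Myc and 2.57, 2.15, 2.35 and 2.39 in Grhl2KO_Myc. Grhl2KO_Myc libraries thus lay above all others, and Myc libraries overlapped with wildtype. The mean log2 ratio differed by 0.77 between Grhl2KO_Myc and wildtype (exact permutation p = 0.0079, the smallest these groups allow, adjusted p = 0.060) and by 0.55 between Grhl2KO_Myc and Myc (exact permutation p = 0.029, adjusted p = 0.086). Foxi1 relative to Tfcp2l1 was 0.64 higher in Grhl2KO_Myc than in wildtype (exact permutation p = 0.0079, adjusted p = 0.060) and 0.71 higher in Myc (exact permutation p = 0.018, adjusted p = 0.067). Jag1 relative to Dll1 differed by -0.18 between Grhl2KO_Myc and wildtype (exact permutation p = 0.016, adjusted p = 0.067) and by -0.21 between Grhl2KO_Myc and Myc (exact permutation p = 0.086, adjusted p = 0.16). Foxi1 relative to Dmrt2 was 0.47 higher in Grhl2KO_Myc than in wildtype (exact permutation p = 0.048, adjusted p = 0.11) and -0.02 different in Myc (exact permutation p = 0.98). None of the 15 passed the adjustment. The smallest exact p possible was 0.0079 for Grhl2KO_Myc against wildtype, 0.018 for Myc against wildtype and 0.029 for Grhl2KO_Myc against Myc. These floors limit what the adjustment can pass, and p-values of ratios chosen after the values were seen are a description.

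**Figure D4:**
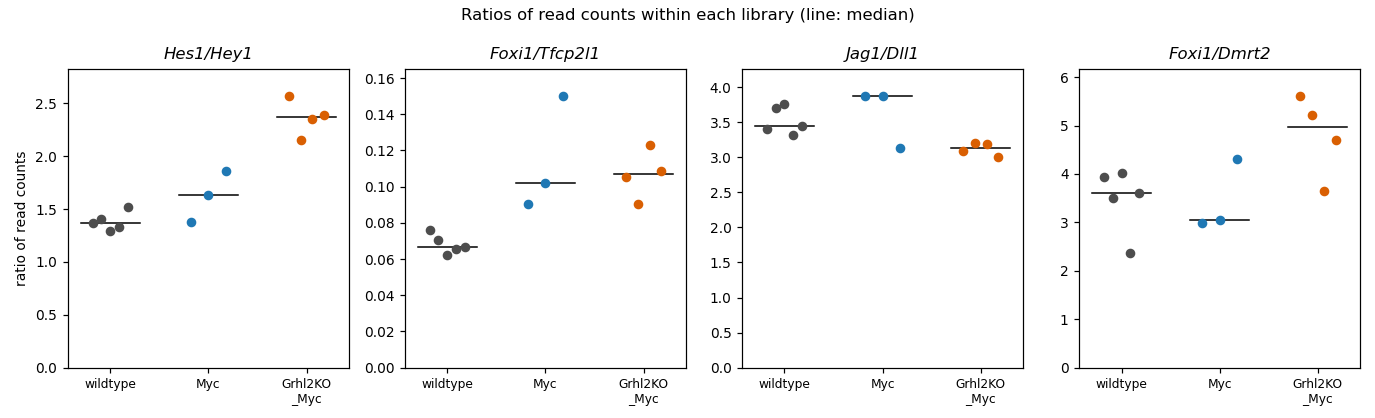
Ratio of read counts of 2 members within each library (y axis, from 0) by genotype, with the median as a line. Hes1/Hey1 spans 2.15 to 2.57 in Grhl2KO_Myc against 1.29 to 1.52 in wildtype, and Foxi1/Tfcp2l1 spans 0.0902 to 0.123 against 0.0622 to 0.0763.

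Across all Notch pathway lists, 54 genes in 6 roles, 2 were called higher and 5 lower in Grhl2KO_Myc against wildtype. Of all genes, 4.06% were called higher and 2.61% lower. The median was -0.06 against -0.01 over all genes. Without the 3 libraries low in proximal tubule transcripts the counts were 1 higher (Dlk1) and 7 lower, with a median of -0.12. Calls over all genes there were 2272 in either direction, against 1584 with all libraries. The 2 called higher both act on the receptor or ligand: Neurl1a, a ubiquitin ligase for Notch ligands (0.36, adjusted p = 0.030), and Dtx1, a ubiquitin ligase that binds Notch (0.36, adjusted p = 0.032). The 5 called lower were Jag1, Notch1, Notch4, Hey1 and Hey2, of which Jag1, Notch1 and Hey1 are members already described. Hey2, a paralogue of Hey1, stood at 8.45, 8.53, 8.01, 7.09 and 8.92 CPM in wildtype, 8.19, 8.40 and 8.02 CPM in Myc and 7.00, 6.34, 6.18 and 6.18 CPM in Grhl2KO_Myc and fell by 0.35 (adjusted p = 0.021), with Grhl2KO_Myc libraries below all others. The calls of Neurl1a, Dtx1 and Hey2 depended on single libraries: Neurl1a held in 12 of 20 alternatives (lost without wildtype 2 or 3, Grhl2KO_Myc 1, 3 or 4, adjusted p up to 0.11), Dtx1 in 9 of 20 (lost without wildtype 2, 3 or 5, Grhl2KO_Myc 2, 3 or 4, up to 0.15) and Hey2 in 15 of 20 (lost without wildtype 2, Grhl2KO_Myc 3 or 4, up to 0.070).

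Of the 15 genes of receptor glycosylation and cleavage, Adam10 included (-0.05, adjusted p = 0.65), 0 passed by edgeR, DESeq2 or limma-voom. At an unadjusted p under 0.05 stood 2, against 22% of all genes. The DNA partner Rbpj differed by 0.00 (adjusted p = 0.99). Of the other targets, Heyl (0.16, adjusted p = 0.38) and Nrarp (-0.15, adjusted p = 0.34) did not pass, and Hes2 and Hes7 lay under 1 CPM. In Myc against wildtype 0 of the 54 Notch pathway genes were called by edgeR, DESeq2 or limma-voom, with 1 at an unadjusted p under 0.05 and a median of -0.03. In Grhl2KO_Myc against Myc 0 were called by edgeR, 3 by DESeq2 and 1 by limma-voom, with a median of -0.04. At an unadjusted p under 0.05 stood 14 of the 54, against 13.3% of all genes.

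**Figure D5:**
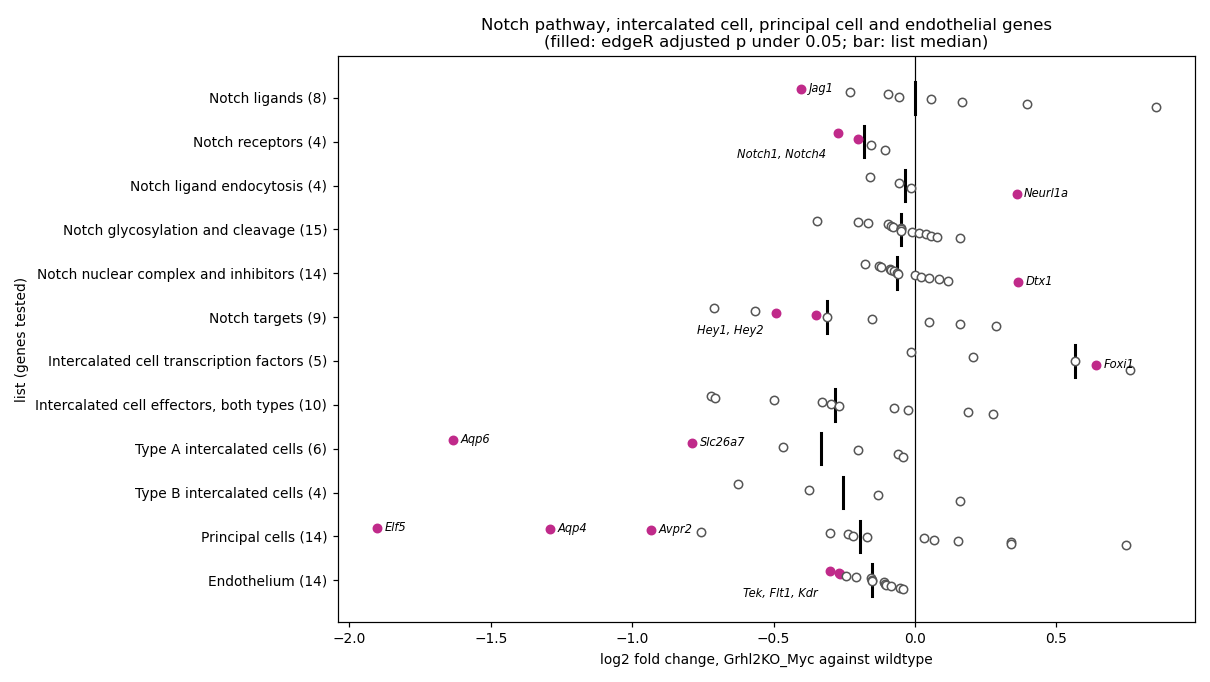
Log2 fold change in Grhl2KO_Myc against wildtype (x axis) of every tested gene of 12 lists (y axis, with the number of genes), with the list median as a bar and genes with an edgeR adjusted p under 0.05 filled. Foxi1 is the only filled intercalated cell gene to the right of 0, and Aqp6 at -1.63 and Slc26a7 at -0.79 are filled to the left.

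Markers of other cell types, Notch-using cells among them, were also compared. In Grhl2KO_Myc against wildtype 2.61% of all genes were called lower and 4.06% higher. All 14 endothelial genes were below 0 in Grhl2KO_Myc against wildtype, 3 were called lower (Tek, -0.30; Kdr, -0.27; Flt1, -0.27), and their summed level was 1106 to 1168 CPM against 1198 to 1342 CPM in wildtype and 1106 to 1183 CPM in Myc. Kdr lost its call without Grhl2KO_Myc 3 (adjusted p = 0.054), and Flt1 without wildtype 3, Grhl2KO_Myc 1, 3 or 4 (up to 0.072). In Myc against wildtype the endothelial genes were also 14 of 14 below 0 (median -0.14, 0 called). In that comparison 1 of 23742 genes tested was called, and Jag1 (-0.04) and Notch1 (-0.08) were also below 0 and not called. All 10 podocyte genes were below 0 and 3 were called lower (Podxl, -0.41; Ptpro, -0.40; Nphs1, -0.64), with sums of 1061 to 1138 CPM against 1324 to 1410.2 CPM. Nphs1 lost its call without wildtype 1 or 3, Grhl2KO_Myc 3 or 4 (up to 0.069). Proximal tubule genes were 20 of 20 below 0 with 2 called lower, at sums of 1952 to 5078 CPM against 1860 to 6839 CPM, and thick limb and distal tubule genes were 10 of 10 below 0 with 1 called lower. Of these calls, Cyp2e1 of the proximal tubule held in 9 of 20 alternatives (lost without any one library of either group but wildtype 4, up to 0.096) and Wnk1 of the distal tubule in 14 of 20 (lost without wildtype 1, 2 or 3, Grhl2KO_Myc 3 or 4, up to 0.079). All 9 genes of the urothelium were above 0 with Krt15 called higher (1.69). Their sums were 143, 110, 132 and 27.5 CPM in Grhl2KO_Myc 1 to 4 against 44.2 to 98.2 CPM in wildtype, so Grhl2KO_Myc 4 was the lowest of all libraries and the other 3 lay above wildtype. Of 9 leukocyte genes tested, 6 were above 0 and 3 below 0, with a median of 0.04, and 1 was called higher (Ptprc, 0.90). No defining marker of endothelium or podocytes was under 1 CPM. The part of these cell types in the member results was not tested.

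Over 45 pairs of members, correlated across the 12 libraries after subtraction of group means, 0 passed the adjustment of the permutation p of r, so variation in common within groups was not shown. Dll1 and Hes1 had r = 0.87 and rho = 0.81 (permutation p = 0.0043 and 0.0067, adjusted p = 0.10 for both; r = 0.79 without the 2 libraries farthest from the median of Dll1). Jag1 and Notch1 had r = 0.78 and rho = 0.87 (permutation p = 0.0046 and 0.0015, adjusted p = 0.10 and 0.066; r = 0.89 without 2 libraries). Tfcp2l1 and Hey1 had r = -0.81 and rho = -0.84 (permutation p = 0.026 and 0.013, adjusted p = 0.28 and 0.12; r = -0.83 without 2 libraries). Foxi1 and Jag1 had r = -0.17 (permutation p = 0.76).

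By the level over all 12 libraries, group differences included, the genes most like each member among 14450 candidates were, by Pearson r: Aes (0.96) for Foxi1, Znrf2 (0.91) for Tfcp2l1, Oxld1 (0.92) for Hmx2, Pld5 (0.90) for Dmrt2, Lhx1 (0.97) for Jag1, Pcdh8 (0.92) for Dll1, Dchs1 (0.95) for Notch1, Palld (0.98) for Notch2, Arc (0.95) for Hes1 and Raver2 (0.96) for Hey1. Of the 30 genes that ranked in the first 3 places of a member, the 3 of Jag1 (Lhx1, -0.68; Robo1, -0.43; Smtn, -0.28) and 2 of Hey1 (Raver2, -0.29; Oxtr, -0.50) were called lower in Grhl2KO_Myc against wildtype. Of all genes 2.61% were called lower. Because group differences entered the ranking, genes picked for a called member tend to shift with it. These values share libraries with the member they were ranked against and are a description.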

How the data were processed

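Whole right kidney RNA was sequenced in 12 libraries, made with a kit that does not mark strand, per the labels' protocols. Reads were aligned with HISAT2 to mm10, per the submitters' processing notes. No source used here names the counting program or its annotation. The authors deposited raw counts per gene, with 0 columns of samples outside the series. Groups came from the genotype labels. Replicates differed beyond sampling noise (chi-square per degree of freedom 13.5 for the most similar pair), so each library counted as 1 replicate.

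Counts were tested with edgeR 4.0.16 in R 4.3.3 (TMM scaling, default expression filter, quasi-likelihood F test, 1 coefficient per group, all 12 libraries), with Benjamini-Hochberg adjustment over 23742 genes. The procedure was run on simulated counts without library effects, with fold changes larger than those of Jag1, Notch1 and Hey1. It does not measure how well changes of their size are recovered. Standard errors were derived from the fold change and its F statistic. Log2 CPM used a prior count of 2, and correlations 100000 permutations within groups. Alternatives were other scalings and filters, DESeq2 1.42.0, limma-voom (limma 3.58.1), fits of only the groups compared, sex (Ddx3y above 10 CPM), proximal tubule and replicate terms, and leaving out libraries. Sequences and starts came from RefSeq GRCm38.p6, gene overlaps from GENCODE M21, which matched 90.6% of gene names.

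The members and lists were chosen with earlier results of these data known. Named genes were the 10 members, Grhl2, Myc, Elf5, Aqp2 and Adam10, from each list up to 3 genes with the smallest adjusted p in Grhl2KO_Myc against wildtype, and the 3 genes most like each member by Pearson r. Other names, the count ratios and the list counts without 3 libraries were added after values were seen.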

Additional observations from a re-analysis of the deposited data

Results flagged for a closer look

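Of 20 groups of 4 or 5 libraries, 1 for each member in wildtype and in Grhl2KO_Myc, 2 held a library far from the rest, and chance gives about 1 in 20. Both were wildtype 4. Hmx2 was at 1.58 CPM in wildtype 4 and at 3.22 to 3.77 CPM in the other 4 wildtype libraries. Notch2 was at 108 CPM in wildtype 4 and at 124 to 130.1 CPM in the others. Wildtype 4 also had the lowest proximal tubule score of the 12 libraries (-1.35), and the part of this in the values of Hmx2 and Notch2 was not tested. Without wildtype 4, Notch2 in Grhl2KO_Myc against wildtype passed the threshold (-0.20, edgeR adjusted p = 0.042).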

How the results depend on the processing

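For Grhl2KO_Myc against wildtype, 4 members were called. With a sex term and with the replicate block 2 were called (Jag1 and Hey1; with the block Foxi1 had an adjusted p of 0.057 and Notch1 of 0.14), and leaving out 1 library gave 2 (without wildtype 1, Grhl2KO_Myc 1, 3 or 4) to 5 (without wildtype 4). For Myc against wildtype, DESeq2 called 2 in place of 0. For Grhl2KO_Myc against Myc, 1 was called with a filter of 1 CPM in 3 libraries, with DESeq2, with limma-voom and with a proximal tubule score term (Jag1 each time), 2 without the 3 libraries low in proximal tubule transcripts (Dmrt2 and Notch2), and leaving out 1 library gave 0 to 1 (Dmrt2, without Grhl2KO_Myc 3). The cause was not tested. The replicate numbers did not pair the libraries: of 10 pairs with the same number 1 correlated above 0.1 (range -0.11 to 0.23), and 3 of 12 libraries correlated best with their own number. With the replicate block 993 of all genes were called in Grhl2KO_Myc against wildtype, against 1584 without it, 2703 with DESeq2, 998 with a sex term, 995 in a fit of only these groups and 750 to 3778 without 1 library. In Grhl2KO_Myc against Myc the number was 200, 777 with DESeq2, 88 with the replicate block and 70 to 163 without 1 library. In Myc against wildtype it was 1 and, with DESeq2, 44. Without the 3 libraries low in proximal tubule transcripts 2272 genes were called in Grhl2KO_Myc against wildtype and 318 in Grhl2KO_Myc against Myc. Over 30 member results and 570 alternatives, 535 kept direction and side of the threshold, 22 lost the call, 13 gained it and 0 reversed a call, and 14 in 7 results changed sign without being called. Over 156 results of other genes the numbers were 2787 of 2953 kept, 116 lost and 50 gained. All 135 alternatives of the 15 ratio results moved by less than the larger of the groups' SDs, and 9 in 3 results changed sign without a call. The number of correlated pairs was 0 in each alternative. Depth limits Hmx2 most, with 114 to 535 reads in a library.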
